A study of Mus musculus with 12 samples.

Results

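Voltage-gated calcium channels, voltage-gated sodium channels and HCN channels set how hippocampal neurons turn membrane voltage into calcium entry, action potentials and pacemaker current. Their genes were taken from the deposited count table by symbol alone: the Cacna1 pore subunits, the Cacna2d and Cacnb auxiliary subunits, the numbered Scn genes ending in a or b, and the Hcn genes. This gave 35 genes of the 24421 in the table. The rule uses no expression value, but the families were picked with earlier results of these data known. They are 10 Cacna1, 4 Cacna2d, 4 Cacnb, 9 sodium channel alpha, 4 sodium channel beta and 4 Hcn genes. The table lists the alpha subunit of NaV1.2 under the older symbol Scn2a1, which the symbol rule does not match, so that gene is given beside the members and not counted among them.

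The RNA was polyribosomal RNA, the transcripts that pellet with ribosomes through a sucrose cushion, from the hippocampus of C57/Bl6 mice aged 6 weeks. The labels form 2 groups, 6 control libraries and 6 fear case libraries. One protocol text covers both groups and gives 8 min in an unfamiliar context, a return to the home cage for 7 min and collection at 15 min. The sources used here do not say how the handling of control and fear case mice differed, or whether a shock was delivered. Nothing in the labels says that each library came from its own mouse, so the p-values measure only the spread between these samples. No input RNA was analysed here, so transcript amount and ribosome association cannot be told apart. In such tissue samples, fewer cells of a type and less RNA per cell cannot be told apart either.

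As background, each calcium or sodium channel is built on a single long pore-forming protein with 4 repeated domains, and the smaller auxiliary subunits set its trafficking and gating. HCN channels are tetramers that open on hyperpolarization and carry a mixed cation current, which in hippocampal pyramidal cells shapes how dendrites add up synaptic input. Immediate early genes such as Fos, by contrast, are known for responding within minutes of neuronal activity. The comparison of the groups asks which of these messages differ on polyribosomes at the stated time.

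Each library held 18.6 M to 44.2 M counts on genes, and fear case 6 was the deepest, with fear case 2 next at 24.2 M. The 35 channel genes together took 57322 to 147101 counts per library, or 0.286% to 0.358% of the gene counts. Levels are given as CPM, counts scaled to a library of 1e6 after TMM, TMM being a scaling that lines up the bulk of genes across libraries. Markers of hippocampal pyramidal neurons were all detected, with summed levels of 3781 to 4277 CPM in control and 3808 to 4075 CPM in fear case. Most of each sum was Camk2a, at 2261 to 2728 CPM in control and 2362 to 2568 CPM in fear case. Slc17a7, on the same list, ranged more widely for its level, from 533 to 755 CPM and from 465 to 621 CPM. Markers of the choroid plexus, the epithelium that lines part of the ventricles, summed to 1063 to 2926 CPM in control and 103 to 2213 CPM in fear case. All 16 of these markers had a negative log2 fold change, and none was at 0 in every library. The highest fear case value, 2213 CPM, was that of fear case 6.

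No channel gene that could be tested passed the adjusted threshold between fear case and control. Of the 35, 30 had enough counts to be tested, and 0 of the 30 passed an adjusted p of 0.05 in edgeR's quasi-likelihood test with Benjamini-Hochberg adjustment over 14564 genes. Over all tested genes 15 passed, a background of 0.103%, split into 0.0481% upward and 0.0549% downward calls. Without fear case 6 the count over all tested genes was 128, of which 12 were upward and 116 downward, and it still included 0 channel genes. Before adjustment, 1 channel gene had p under 0.05, Scn9a, which was on the higher side. That threshold was passed by 7.14% of all tested genes, 2.62% on the higher and 4.52% on the lower side. DESeq2 and limma-voom likewise gave 0 adjusted and 1 unadjusted. The lowest adjusted p among the channel genes was 0.613 (Scn9a, edgeR). In none of the 30 did the 6 fear case libraries lie wholly to one side of the 6 controls, which happened for 0.597% of all tested genes.

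The size of any difference was bounded closely for the well-covered channel genes. For all 25 that averaged at least 5 CPM, the 95% interval of the log2 fold change lay inside 0.58 in either direction, which is 1.5-fold. Their log2 fold changes ran from -0.16 (Hcn2) to 0.14 (Cacna1c). The widest interval bounds among the 25 were -0.51 (Hcn3) and 0.38 (Cacna1h). The 5 tested genes under that level, among them Scn7a, Scn9a, Hcn4 and Cacna2d4, had intervals reaching past 1.5-fold. With no limit on level, 83.3% of tested channel genes and 74.8% of all tested genes had an interval inside 1.5-fold. Of 10 rapid immediate early genes listed, 6 passed an adjusted p of 0.05 in the same edgeR test, all upward. All 10 had a positive log2 fold change and an unadjusted p under 0.05, and in 7 the groups did not overlap. The list was chosen with earlier results of these data known. Fos, a transcription factor gene, ranged from 2.29 to 6.83 CPM in control with a median of 4.08 CPM, and from 12.1 to 33.7 CPM in fear case with a median of 20.6 CPM. Its log2 fold change was 2.25 (SE 0.23, edgeR adjusted p = 1.1e-05). Npas4, a neuronal activity-dependent transcription factor gene, had a log2 fold change of 2.06 (SE 0.16, edgeR adjusted p = 3.0e-07).

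**Figure D1:**
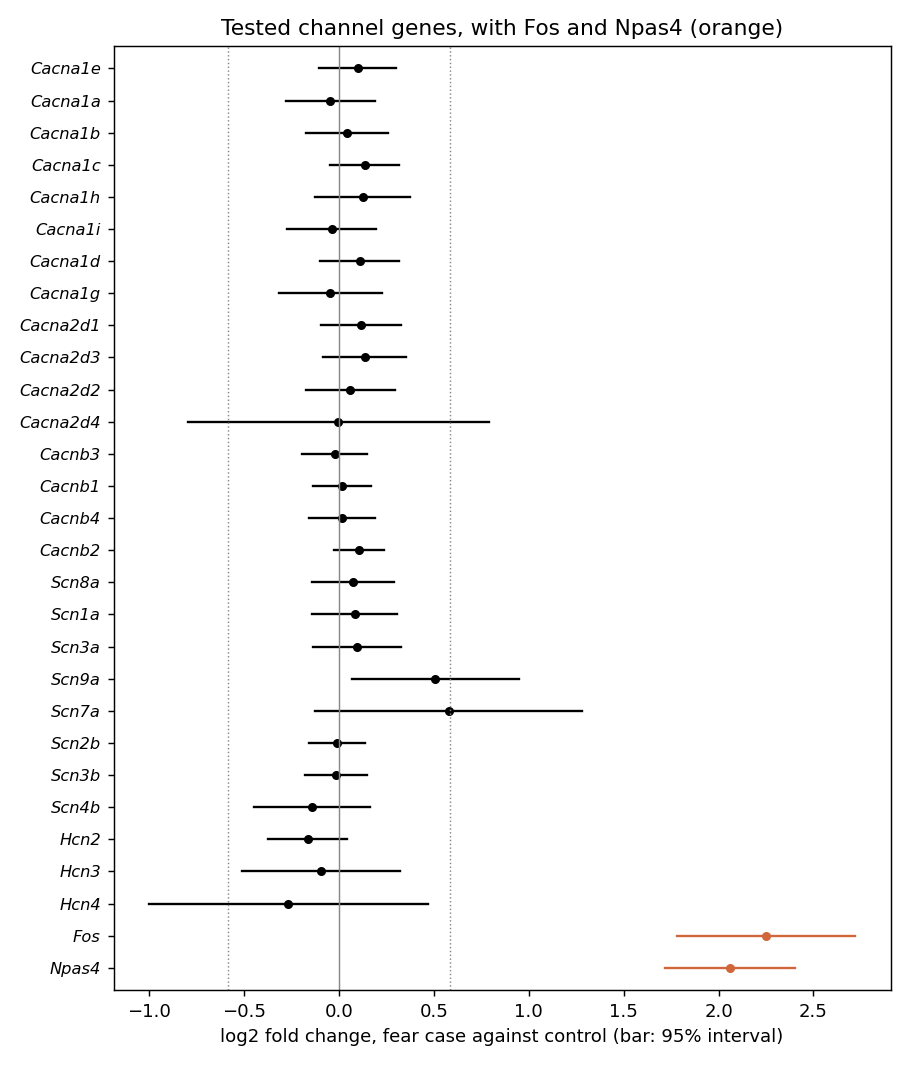
Log2 fold change (x axis, fear case against control) of 27 tested channel genes (y axis), with Fos and Npas4 in orange for scale. Bars are 95% intervals from edgeR's fit and dotted lines mark 1.5-fold in each direction. The channel genes lie between -0.27 and 0.58, while Fos and Npas4 lie above 2.

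Over the tested channel genes the median log2 fold change was 0.04, beside -0.0046 over all tested genes, and 18 of the 30 were positive, beside 48.6% of all tested genes. Most channel genes have long exons, and log2 fold changes followed exon length in this table. The 3613 tested genes with the longest exons (4774 bases or more) had a median of 0.04 and include 21 of the 30 channel genes. The 3613 with the shortest exons had a median of -0.06. Fold changes also followed level: the 3613 genes of highest mean level had a median of 0.02 and include 17 channel genes, and the 3613 of lowest level had -0.06 and include 5. With the trend over exon length removed, the channel gene median was 0.0075, and the log2 fold changes given in the next paragraphs became 0.06 for Cacna1c, 0.05 for Cacna1d, 0.01 for Cacna1e and 0.07 for Cacna2d1. The groups of channel genes in the following paragraphs are ordered by the role of the protein.

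The pore-forming calcium channel genes were led by Cacna1e, the R-type channel CaV2.3. Per kilobase of exon, a scale on which genes of unequal length can be compared, Cacna1e stood at 21.1 ± 2.45 CPM per kb in control and 22.6 ± 3.76 CPM per kb in fear case (mean ± SD, n = 6 each, as for all such values here). Cacna1a, the P/Q-type channel of presynaptic terminals, followed at 16.2 ± 2.40 and 15.7 ± 3.20 CPM per kb. Cacna1b, the N-type channel, stood at 8.50 ± 1.09 and 8.74 ± 1.60 CPM per kb. Next came the L-type genes Cacna1c and Cacna1d and the T-type genes Cacna1h, Cacna1i and Cacna1g, between 3.91 and 6.31 CPM per kb in either group. These 5 lie within the spread of at least one neighbour in that order, and when lengths were taken over all annotated transcripts, an alternative chosen after the data were seen, Cacna1c moved from rank 4 to rank 6 in the family.

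Cacna1e counts scaled to library size ranged from 279.6 to 376 CPM in control with a median of 309 CPM, and from 264 to 419 CPM in fear case with a median of 333 CPM. The groups overlapped, and its log2 fold change was 0.10 (SE 0.10). Cacna1c, whose CaV1.2 channel couples dendritic calcium entry to gene expression, ranged from 70.02 to 94.8 CPM in control (median 85.6) and from 79.4 to 108 CPM in fear case (median 92.2). Of its fear case libraries 2 lay above every control, and its log2 fold change was 0.14 (SE 0.09, 95% interval -0.05 to 0.32), and 0.08 without fear case 6. Cacna1d, the CaV1.3 channel, ranged from 31.8 to 44.6 CPM in control (median 35.04) and from 31.96 to 46.7 CPM in fear case (median 38.2). Its log2 fold change was 0.11 (SE 0.10), with 1 fear case library above all controls, and it moved to 0.18 without control 1 and 0.05 without fear case 2. Its exons overlap those of Chdh on the opposite strand by 587 of 8878 bases, and Chdh stood at 8.85 ± 1.53 CPM in control and 5.92 ± 2.77 CPM in fear case. The part of that overlap in the Cacna1d counts was not tested.

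The log2 fold changes of the other 5 tested pore genes lay between -0.04 (Cacna1a, Cacna1g and Cacna1i) and 0.13 (Cacna1h). Cacna1g, a T-type channel gene, ranged from 27.1 to 45.9 CPM in control and from 24.7 to 44.6 CPM in fear case. Its highest control value, 45.9 CPM, was that of control 1, and the other controls reached 33.7 CPM. Cacna1h, another T-type gene, stood at 68.0 CPM in control 1 and 41.3 to 43.8 CPM in the other 5 controls. Without control 1, 3 channel genes had an unadjusted p under 0.05 and the lowest edgeR adjusted p among the channel genes was 0.508, for Cacna1h. The remaining pore genes, Cacna1s of skeletal muscle and Cacna1f of the retina, were too low to test, with 118 and 51 counts in all 12 libraries together.

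**Figure D2:**
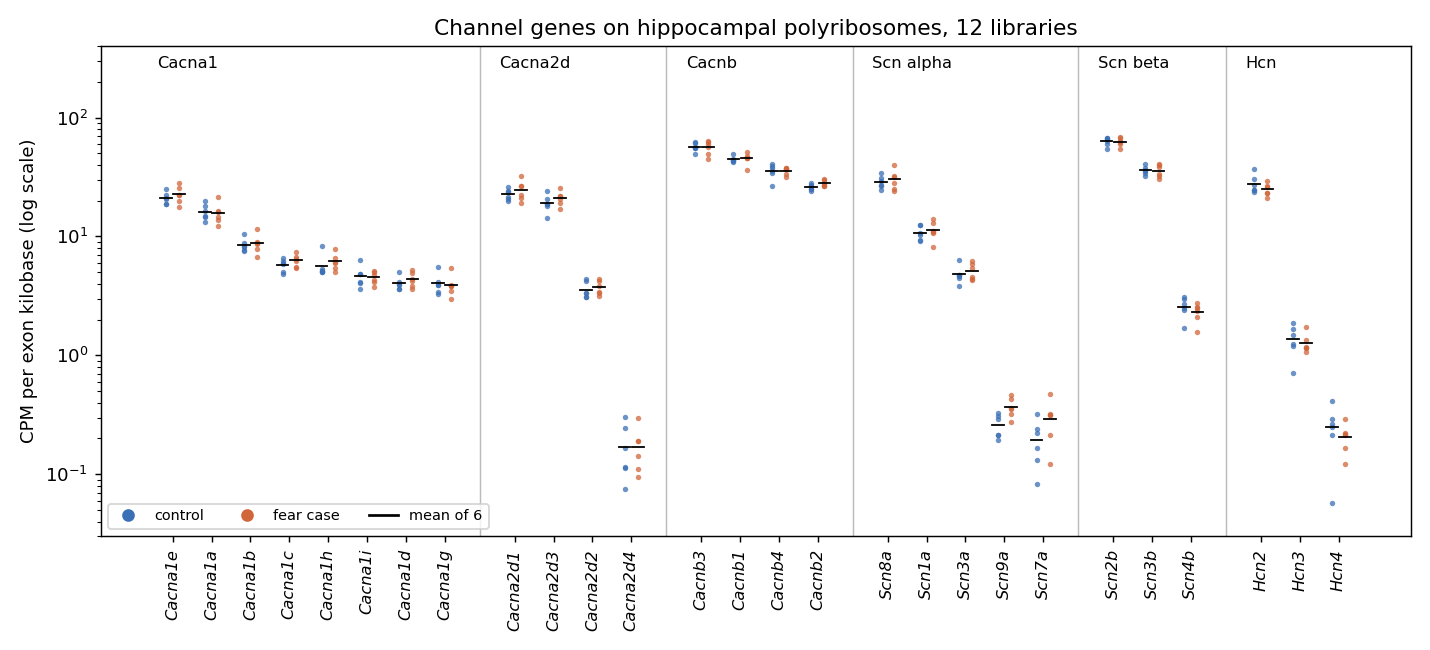
Level of 27 tested channel genes in CPM per exon kilobase (y axis, log scale), by family and in order of mean level (x axis), with 6 control libraries in blue, 6 fear case libraries in orange and a black bar at each mean. The blue and orange points overlap for each gene, and levels run from a mean of 62.8 CPM per kb for Scn2b to under 1 CPM per kb for Scn7a and Hcn4.

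The alpha2delta genes encode extracellular subunits that carry calcium channels to the membrane. The Cacna2d1 subunit is among those that bind gabapentin. Cacna2d1 and Cacna2d3 led, with 22.7 ± 2.38 and 19.1 ± 3.22 CPM per kb in control, and their ranges overlapped. In CPM, Cacna2d1 ranged from 148 to 194 in control (median 168) and from 142 to 236 in fear case (median 181). Its log2 fold change was 0.12 (SE 0.10), and 3 fear case libraries lay above all controls while 1 lay below them all. Cacna2d3 ranged from 52.7 to 88.8 CPM in control (median 69.5) and from 62.3 to 94.4 CPM in fear case (median 78.2), with a log2 fold change of 0.14 (SE 0.11). That value was 0.07 without control 2, 0.07 without fear case 6 and 0.21 without control 1. Cacna2d2, which in cerebellum serves Purkinje cells, was lower at 3.58 ± 0.565 and 3.72 ± 0.509 CPM per kb. Cacna2d4, a retinal subunit, stood at 0.170 ± 0.088 and 0.171 ± 0.072 CPM per kb.

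The intracellular beta subunits bind the pore protein and help bring it to the membrane. Cacnb3 led at 56.8 ± 4.69 CPM per kb in control and 56.0 ± 7.40 CPM per kb in fear case, before Cacnb1 at 44.7 ± 2.41 and 45.3 ± 4.88 CPM per kb. Cacnb4, whose loss gives the lethargic mouse, followed at 35.4 ± 4.87 and 35.8 ± 2.45 CPM per kb. Cacnb2 stood at 26.0 ± 1.54 and 28.1 ± 1.68 CPM per kb. With lengths taken over all annotated transcripts the order held, but the means over all libraries changed. Cacnb3 and Cacnb1 then lay close, at 41.7 and 40.0 CPM per kb, and Cacnb2 moved from 27.1 to 9.07 CPM per kb. In CPM, Cacnb2 ranged from 107 to 125 in control (median 115) and from 117 to 135 in fear case (median 123), so that 3 fear case libraries lay above all controls and none below. Its log2 fold change was 0.11 (SE 0.06, 95% interval -0.02 to 0.24), with an edgeR adjusted p of 0.756. Cacnb3 ranged from 146 to 186 CPM in control (median 167) and from 133 to 189 CPM in fear case (median 172). Its log2 fold change was -0.02 (SE 0.08), a sign that turned in 4 of 21 alternative analyses.

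Sodium channel alpha subunits carry the rising phase of the action potential. Among the members Scn8a, the NaV1.6 channel of the axon initial segment and nodes of Ranvier, stood highest at 28.7 ± 3.37 CPM per kb in control and 30.2 ± 5.83 CPM per kb in fear case. Scn1a, the NaV1.1 channel that supports firing of inhibitory interneurons, followed at 10.7 ± 1.46 and 11.3 ± 2.08 CPM per kb. Scn3a, which in rodents is strongest before and around birth, stood at 4.80 ± 0.831 and 5.13 ± 0.832 CPM per kb. Scn2a1, outside the symbol rule, was above them all at 38.2 ± 4.96 and 42.5 ± 7.34 CPM per kb, and its log2 fold change was 0.16 (SE 0.10, edgeR adjusted p = 0.783).

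The make-up of the alpha subunit messages differed little between libraries in percentage points. Counted per kilobase and with Scn2a1 included, Scn2a1 made up 46.0 ± 1.67% of alpha subunit messages in control and 47.2 ± 0.794% in fear case. Scn8a made up 34.6 ± 2.16% and 33.4 ± 1.27%, Scn1a 12.9 ± 0.753% and 12.6 ± 0.997%, and Scn3a 5.78 ± 0.683% and 5.71 ± 0.392%. Over the 12 libraries the share of Scn8a stayed between 30.6% and 36.8%. Among calcium channel pore genes Cacna1e held 30.2 ± 0.757% and 31.2 ± 1.61%, and Cacna1a 23.1 ± 1.18% and 21.5 ± 1.29%. These shares carry no test, since each depends on the other members of the family.

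**Figure D3:**
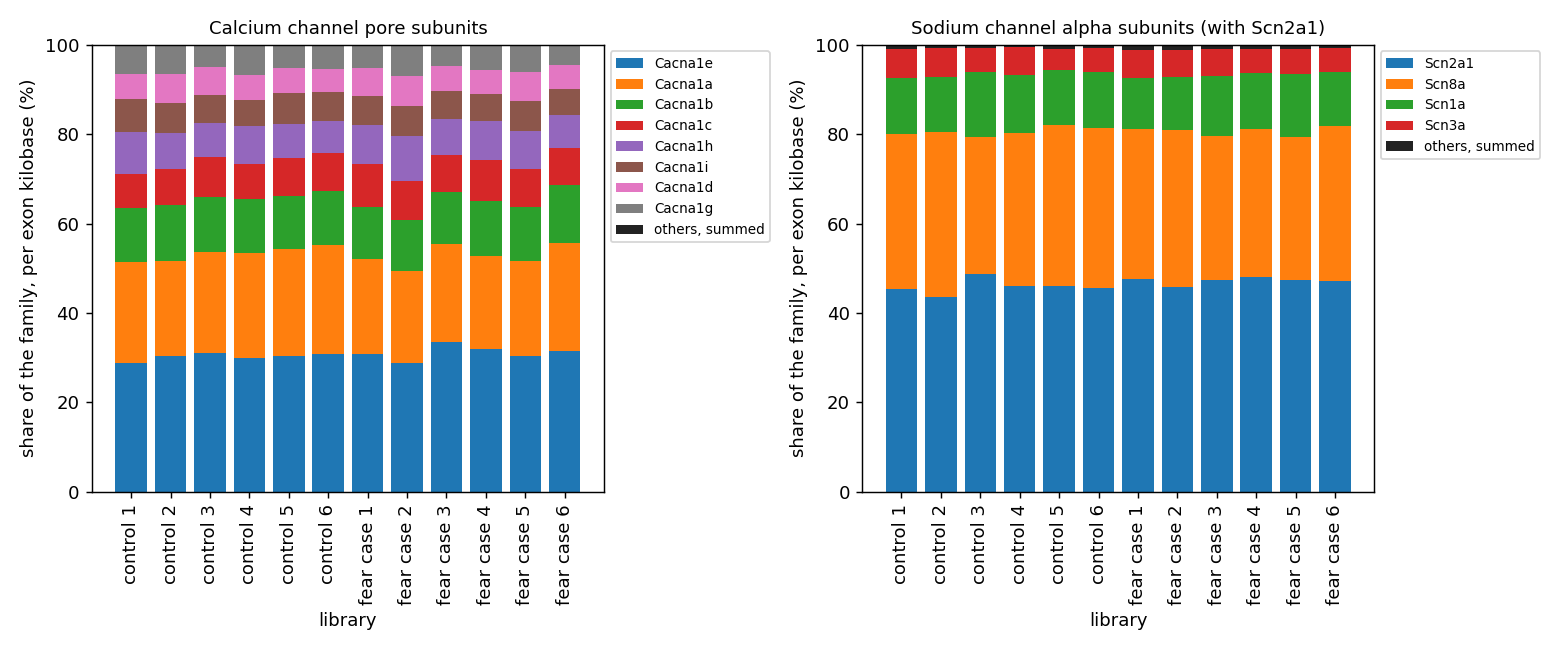
Share of each gene in the summed level per exon kilobase (y axis, %) of the calcium channel pore genes (left) and of the sodium channel alpha genes with Scn2a1 (right), for each of the 12 libraries (x axis). Genes averaging under 1% are summed. Scn2a1 stays between 43.6% and 48.8% and Cacna1e between 28.8% and 33.6% over all libraries.

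Among the 30 tested members the lowest unadjusted p was that of Scn9a, the NaV1.7 channel best known from pain-sensing neurons. Its control libraries 1 to 6 stood at 3.26, 3.08, 2.14, 2.11, 1.93 and 2.91 CPM. Its fear case libraries 1 to 6 stood at 3.53, 4.65, 2.72, 3.18, 4.24 and 3.59 CPM. The fear case values were the higher in 4 of 6 libraries against every control, and the other 2, fear case 3 and fear case 4, lay within the control range. The log2 fold change was 0.51 (SE 0.21, 95% interval 0.07 to 0.95), the unadjusted p 0.0258 and the edgeR adjusted p 0.613, so it did not pass. This gene holds under 1% of the alpha subunit messages, at 0.259 ± 0.058 CPM per kb in control and 0.368 ± 0.070 CPM per kb in fear case. It overlaps the opposite-strand gene Gm13629 by 180 of 9933 exon bases, and Gm13629 stood at 2.89 ± 0.401 CPM in control and 3.04 ± 0.931 CPM in fear case.

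Scn7a, an atypical member that senses sodium rather than voltage, had the largest log2 fold change at 0.58 (SE 0.34, 95% interval -0.13 to 1.28, edgeR adjusted p = 0.755). It ranged from 0.603 to 2.34 CPM in control with a median of 1.43 CPM, and from 0.902 to 3.45 CPM in fear case with a median of 2.30 CPM. The groups overlapped, with 2 fear case libraries above all controls. The sensory neuron genes Scn10a and Scn11a and the skeletal muscle gene Scn4a were not tested, with 24, 23 and 12 counts in all. Scn4a had 0 counts in the 121 M control counts, which allows a level of up to 0.0247 CPM over the group for counting error only, and 12 counts in fear case.

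Sodium channel beta subunits are short single-pass membrane proteins that bind the alpha subunit and also act in cell adhesion. Scn2b stood at 63.0 ± 5.02 and 62.6 ± 5.19 CPM per kb, and Scn3b at 36.0 ± 2.91 and 35.7 ± 4.25 CPM per kb. Scn4b, a subunit that supports resurgent sodium current, was low at 2.56 ± 0.503 and 2.31 ± 0.421 CPM per kb, with a log2 fold change of -0.14 (SE 0.15).

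Of the HCN genes, Hcn2 led per length, at 27.8 ± 4.96 CPM per kb in control and 24.8 ± 2.84 CPM per kb in fear case. In CPM, Hcn2 ranged from 76.0 to 117 in control (median 82.8) and from 67.4 to 92.6 in fear case (median 78.95). The highest control value was that of control 1, and 3 fear case libraries lay below all controls. Its log2 fold change was -0.16 (SE 0.10, 95% interval -0.37 to 0.04, edgeR adjusted p = 0.763), and -0.07 without control 1. Hcn4, the pacemaker subunit of heart and thalamus, ranged from 0.352 to 2.52 CPM in control (median 1.59) and from 0.741 to 1.79 CPM in fear case (median 1.32), with a log2 fold change of -0.27 (SE 0.35). Its value moved to -0.06 without control 6, -0.15 without fear case 2, -0.41 without fear case 6, -0.47 without control 4 and -0.09 with limma-voom. Hcn3 stood at 5.45 ± 1.61 and 5.10 ± 0.956 CPM.

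The DNA before annotated start sites of leading members is shown as background, and its relation to level was not tested. Of the 35 genes, 25 have 1 or more RefSeq promoter windows (GRCm38.p6), 34 windows in all, of which the 250 bases before the start were read. The 3 family leaders with a single window and Scn9a are printed 5′ to 3′ along the gene's strand, with the GC box GGGCGG, read on both strands, in capitals.
Cacna1e, GRCm38.p6 chr1:154725921-154726170, minus strand: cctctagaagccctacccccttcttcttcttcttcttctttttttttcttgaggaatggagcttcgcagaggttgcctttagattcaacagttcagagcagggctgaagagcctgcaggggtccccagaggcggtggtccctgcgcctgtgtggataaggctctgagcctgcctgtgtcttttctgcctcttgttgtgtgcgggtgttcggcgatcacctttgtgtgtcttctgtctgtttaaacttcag
Cacna2d1, GRCm38.p6 chr5:15934441-15934690, plus strand: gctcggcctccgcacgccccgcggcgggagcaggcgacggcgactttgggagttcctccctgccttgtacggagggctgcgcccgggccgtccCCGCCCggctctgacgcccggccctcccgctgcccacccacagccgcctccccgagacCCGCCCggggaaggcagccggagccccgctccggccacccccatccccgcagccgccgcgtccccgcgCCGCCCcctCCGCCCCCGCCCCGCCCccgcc
Hcn2, GRCm38.p6 chr10:79716384-79716633, plus strand: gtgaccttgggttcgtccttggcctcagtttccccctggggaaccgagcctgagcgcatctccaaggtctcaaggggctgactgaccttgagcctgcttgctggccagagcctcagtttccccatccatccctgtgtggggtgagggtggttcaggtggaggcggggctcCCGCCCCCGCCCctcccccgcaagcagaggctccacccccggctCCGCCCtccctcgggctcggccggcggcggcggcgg
Scn9a, GRCm38.p6 chr2:66634963-66635212, minus strand: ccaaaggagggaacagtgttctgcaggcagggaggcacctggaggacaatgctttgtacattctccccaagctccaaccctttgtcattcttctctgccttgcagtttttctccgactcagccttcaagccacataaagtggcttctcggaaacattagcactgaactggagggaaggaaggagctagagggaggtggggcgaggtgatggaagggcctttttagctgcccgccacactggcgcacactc
The Cacna2d1 window holds 6 GC boxes and is 82.4% G or C, and the Hcn2 window holds 3 and is 70.4% G or C. The Cacna1e and Scn9a windows hold none and are 52.0% and 54.4% G or C. The Cacna1e window lies inside the annotated gene, which runs from 154390731 to 154884501 on the minus strand. It thus precedes an internal start and not the 5′ end of that gene. The other printed windows adjoin the annotated 5′ end of their gene. A GC box was found in 15 of the 34 channel windows (44.1%) and in 32.7% of all 32851 windows of that length. The channel windows had a median of 62.0% G or C, against 52.4% over all windows. The part of base composition in this share and the following ones was not tested. Among motifs tied to fast activity-dependent transcription, the full cAMP response element TGACGTCA was found in 0 of the 34 channel windows and in 1.55% of all windows. The AP-1 motif TGANTCA was found in 0 and in 6.75%, and the CArG box of serum response factor in 0 and in 1.47%. The shorter TGACG, which the full element contains, was found in 6 channel windows (17.6%) and in 17.8% of all windows. The absence of letters in a window says nothing of the factor, and a site farther away would not be seen.

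Genes related to these channels were examined from a list of 38, called partners here for short. The calcium list includes AMPA receptor auxiliary subunits such as Cacng4. The sodium list includes the sodium leak channel complex, such as Unc79. Not every listed gene thus binds or regulates the channels counted here. Of 20 calcium channel partners 15 were tested, 0 passed in either direction, and their median log2 fold change was -0.003. Rims2, an active zone protein that binds presynaptic calcium channels, stood at 183 ± 10.1 CPM in control and 196 ± 10.6 CPM in fear case, for a log2 fold change of 0.10 (SE 0.06). Cacng4, an AMPA receptor auxiliary subunit of the gamma family, stood at 5.67 ± 1.18 and 4.71 ± 0.764 CPM (log2 fold change -0.26, SE 0.17). Of 15 sodium channel partners all 15, Scn2a1 among them, were tested and 0 passed. Of these 14 were positive, with a median of 0.10, beside 48.6% positive among all tested genes. As given above, log2 fold changes followed exon length, with a median of 0.04 for genes of 4774 exon bases or more. Fgf12 (6092 bases), Unc79 (8874) and Scn2a1 (8690) are that long, and Fgf14 (4182 bases, log2 fold change 0.17) is not. The part of exon length in the signs of the sodium list was not tested. In that list Fgf12, an intracellular FGF homologous factor that binds sodium channels, ranged from 184 to 217 CPM in control (median 205) and from 216 to 244 CPM in fear case (median 223). Of its fear case libraries 5 lay above all controls, with a log2 fold change of 0.16 (SE 0.06, unadjusted p = 0.0204, edgeR adjusted p = 0.597). Unc79, a subunit of the sodium leak channel complex, stood at 91.6 ± 8.52 and 102 ± 5.77 CPM (log2 fold change 0.15, SE 0.07, edgeR adjusted p = 0.694).

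Of the 3 HCN partners, 0 passed. Kctd3, reported to bind an HCN subunit, stood at 106 ± 5.58 CPM in control and 109 ± 7.02 CPM in fear case, a log2 difference of 0.04 (SE 0.06). Pex5l, whose protein TRIP8b controls HCN trafficking in hippocampus, stood at 301 ± 24.2 CPM in control and 298 ± 18.4 CPM in fear case, a difference of -0.01 on the log2 scale (SE 0.07). Kcne2, a single-pass subunit reported to bind HCN and potassium channels and abundant in choroid plexus, had a log2 fold change of -1.66 (SE 0.54, edgeR adjusted p = 0.404). It ranged from 7.19 to 19.3 CPM in control and from 0.0412 to 12.9 CPM in fear case, where the highest value was that of fear case 6. The choroid plexus markers, as given above, were low in the same 5 fear case libraries. Markers of ependyma, the ciliated lining of the ventricles, summed to 35.4 to 46.3 CPM in control and 24.3 to 29.3 CPM in fear case. The part of ependyma in the channel gene values was not tested. With the mean choroid plexus marker level as a covariate, 0 channel genes passed and 0 had an unadjusted p under 0.05, with edgeR adjusted p of 0.700 or more. The median SE of the channel genes was 0.14 in that fit against 0.10 without the covariate, and the log2 fold change of Scn9a was 0.49 against 0.51. Other log2 fold changes moved by more: Cacna1e to 0.18, Cacna2d1 to 0.21, Cacna2d3 to 0.23, Cacnb2 to 0.06, Cacnb3 to -0.15 and Hcn4 to 0.05.

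The 8 tested Cacna1 genes and the 3 alpha genes Scn1a, Scn3a and Scn8a moved together across libraries. Their median deviation from the 12-library mean was 0.31 on the log2 scale in control 1, 0.34 in fear case 6 and 0.14 in fear case 2, and -0.21 in control 4 and -0.28 in fear case 1. The summed level of the Cacna1 genes was 952 CPM in control 1 and 988 CPM in fear case 6, against 640.5 CPM in fear case 1. The libraries with high and low values are thus found in both groups. Of the 25 channel genes that averaged at least 5 CPM, fear case 6 was the highest of the 12 libraries for 10, and fear case 1 the lowest for 12. The pattern was not limited to pore genes. Of these 25, 21 lay above their mean in control 1, 22 in fear case 6 and 3 in fear case 1. The summed Cacna2d level was 303 CPM in control 1, 356 CPM in fear case 6 and 224 CPM in fear case 1. The summed Hcn level was 309, 297 and 219 CPM in the same libraries.

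The median of the 4 Cacnb genes moved the other way in 3 of these 5 libraries. This median deviation was -0.12 in control 1, -0.17 in fear case 6 and 0.15 in fear case 1, each of the opposite sign to the pore genes. Single genes departed from it: Cacnb3 was at 0.12 in control 1, and Cacnb4 at 0.09 in fear case 6 and -0.07 in fear case 1. In fear case 2 (0.08) and control 4 (-0.02) the Cacnb median had the sign of the pore genes. Over the 3613 tested genes with the longest exons, the median deviation was 0.13 in fear case 6, -0.03 in control 1 and 0.009 in fear case 1. The summed level of 8 astrocyte markers was 2130 CPM in control 1 and 2493 CPM in fear case 6, and 1525 to 1907 CPM in the other 10 libraries. Slc1a2 alone gave 1317 CPM of that sum in control 1 and 1738 CPM in fear case 6. The markers were not uniform in fear case 6. Aqp4 (88.4 CPM), Gja1 (74.2 CPM) and Slc1a3 (185 CPM) were above every control there, and Gfap (133 CPM) and Aldoc (252 CPM) were below every control. The ribosomal RNA precursor Rn45s took 12.5% of gene counts in fear case 6 and 5.76% in control 1, within the 4.55% to 7.98% of the other libraries. The part of each of these in the pattern was not tested. Without fear case 6 the log2 fold change of Cacna1e was 0.03 and that of Cacna2d1 was 0.03, and without control 1 they were 0.16 and 0.16, with 0 channel genes passing in either case. Without fear case 1 they were 0.16 and 0.18, and without fear case 3 that of Cacna1e was 0.06.

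**Figure D4:**
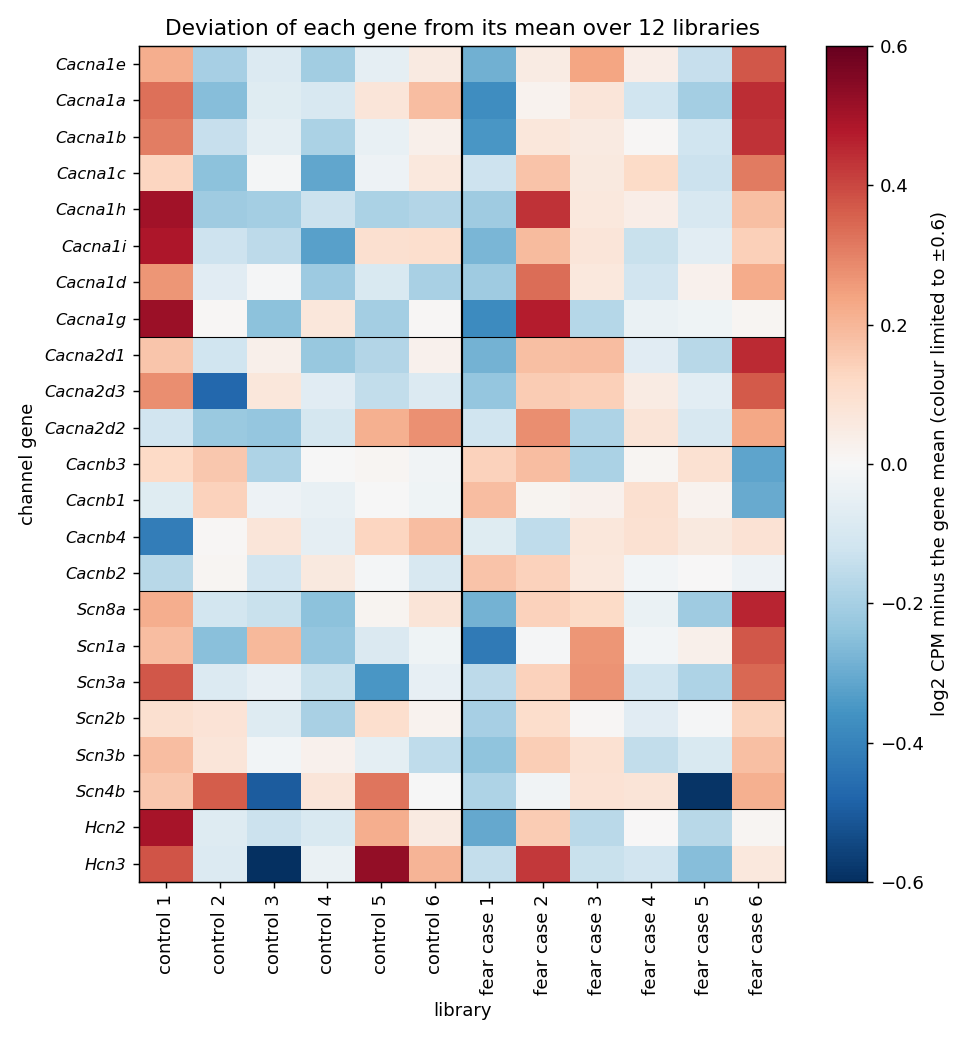
Deviation of 23 channel genes averaging at least 5 CPM (y axis, in family order) from its own mean over the 12 libraries (x axis, controls left of the line), in log2 CPM from blue (lower) to red (higher). Control 1 and fear case 6 are red and fear case 1 is blue for most pore genes, and the Cacnb rows are mostly of other colours in those 3 libraries.

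**Figure D5:**
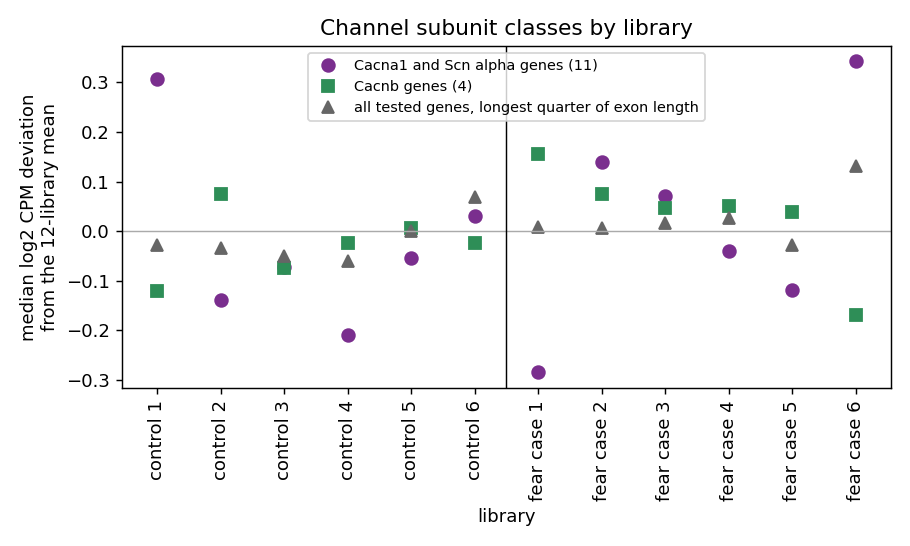
Median log2 deviation from the 12-library mean (y axis) for the 11 calcium and sodium channel pore genes, the 4 Cacnb genes and the 3613 tested genes with the longest exons, by library (x axis). The pore genes reach 0.31 in control 1 and 0.34 in fear case 6, where the Cacnb genes lie at -0.12 and -0.17.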

How the data were processed

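Polyribosomal RNA of mouse hippocampus was sequenced in 12 libraries with a total RNA kit. The authors deposited raw read counts per gene symbol for each library, made with cutadapt, TopHat, Bowtie and HTSeq on mm10, per the submitters' processing notes; versions, annotation and strand setting are not stated there. HTSeq's summary rows were left out; unassigned reads listed as no feature were 25.5% to 33.3% of those assigned, ambiguous or without a feature.

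Groups come from the labels. Genes were kept by edgeR's filterByExpr (minimum count 10, minimum total 15), scaled by TMM and tested by edgeR 4.0.16's quasi-likelihood test in R 4.3.3, with all 12 libraries and no covariate; adjusted p-values are Benjamini-Hochberg over all 14564 tested genes, at 0.05. Scripts were tested on simulated counts. Intervals at 95% use the fit's SE. Levels per kb use exons of RefSeq-linked GENCODE transcripts on GRCm38. limma 3.58.1 and DESeq2 1.42.0 were alternatives, with other filters, scaling, covariates, a replicate block and each library left out. The members and gene lists were chosen with earlier results of these data known. Named members are the 2 with the lowest p per family (Cacna1, Cacna2d, Cacnb, Scn, Hcn), the most abundant per kb in each, and others as family ranges; partners are named by the 2 lowest p per list, and Pex5l was added after its values were seen. Intervals and floors cover counting error or library spread only, not PCR duplication. A few members enter the fits and counts but are not reported here by name.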

Additional observations from a re-analysis of the deposited data

Results flagged for a closer look

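In 4 of 54 sets of 6 libraries of one group, one for each channel gene reported here and group, a single library stood apart from the other 5 by Dixon's criterion (critical value 0.625), which chance gives in about 1 of 20 sets. Cacna1h stood at 68.0 CPM in control 1, against 41.3 to 43.8 CPM in the other controls. Cacna1g stood at 45.9 CPM in control 1, against 27.1 to 33.7 CPM. Scn3a stood at 54.3 CPM in control 1, against 32.9 to 40.6 CPM. Cacnb1 stood at 199 CPM in control 2, against 172 to 181 CPM.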

How the results depend on the processing

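The count of channel genes that passed was 0 in all 21 alternatives, and their lowest adjusted p over those settings was 0.478 (Scn9a, DESeq2). Their median log2 fold change lay between 0.0075 and 0.09. The 15 genes called over the whole table (7 higher, 8 lower) became 63 with DESeq2 (13 higher, 50 lower), 37 with no filter on low counts (11 higher, 26 lower) and 6 with the choroid plexus covariate, of which 0 were lower. Lower calls were 5 with limma-voom and 4 with the stricter filter. Leaving out 1 library gave 9 to 128 calls, 6 to 12 higher and 3 to 116 lower. The highest of each came without fear case 6, and 9 came without control 3 or without fear case 2; the cause was not tested. The sign turned for Hcn4 with the choroid plexus covariate (0.045). With 1 library left out, Cacnb3 lay between -0.060 and 0.034. Replicate numbers did not pair the samples: same-numbered deviations correlated at -0.171 to 0.0468, and only numbers 3 and 6 correlated best with their own. A replicate block gave 18 calls (7 higher, 11 lower) and 0 channel genes. With no filter the 5 untested genes had adjusted p from 0.479 (Scn4a) to 0.862 (Cacna1f). In that setting 3 channel genes had an unadjusted edgeR p under 0.05. They were Scn4a (0.0074), Scn9a (0.031) and Cacna1s (0.040), of which Cacna1s was lower in fear case (log2 fold change -1.18). With lengths over all transcripts, an alternative added after seeing the data, 18 of 30 levels per kb moved by more than 1 SD. Depth limits the 5 tested genes under 5 CPM.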
